A study of Neurospora crassa with 6 samples.

Results

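Transcripts of 8 genes for nonsense-mediated mRNA decay (NMD), the exon junction complex and the nuclear cap-binding complex were examined in a period-2 (prd-2) mutant of the filamentous fungus Neurospora crassa and in its control. The genes were picked by locus tag from the deposited table of 9730 genes: NCU04242 (prd-6, the Neurospora UPF1 gene), NCU05267 (upf2), NCU03435 (upf3), NCU01234 (eIF4A3), NCU03226 (Y14), NCU04405 (mago), NCU04187 (cbp80) and NCU00210 (cbp20). All 8 were in the table and all 8 passed the filter of a mean of at least 1 FPKM, a count of sequenced fragments divided by transcript length and by library size. The RefSeq gene table of assembly NC12 gives a symbol for prd-6 alone among them, and the other names come from published knowledge of the Neurospora genes and not from the labels. The mutant group was 3 cultures of strain 1810, which carries ras-1bd, prd-2::barR (prd-2 disrupted by a resistance marker) and mating type A. The control group was 3 cultures of strain 328-4, which carries ras-1bd and mating type A. Both strains therefore share the ras-1bd allele, which makes the daily rhythm of spore formation visible. All cultures grew for 48 h at 25 °C in constant light with shaking, in Bird medium with 1.8% glucose, and polyadenylated RNA was sequenced.

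NMD destroys mRNAs on which translation ends in an unusual place, such as at a premature stop codon or ahead of a long 3′ untranslated region. The helicase UPF1 acts on these mRNAs together with its partners UPF2 and UPF3. In many eukaryotes an exon junction complex left behind by splicing marks such mRNAs when it lies downstream of the stop codon. It is built around the helicase eIF4A3 and the heterodimer of Y14 and MAGO. CBP80 and CBP20 form the heterodimer that binds the cap of newly made mRNA in the nucleus. In Neurospora the UPF1 gene is the clock gene prd-6, and the study asked how NMD and PRD-2 act on the transcript of casein kinase I (ck-1a).

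Of the 8 genes, 2 fell in the mutant, cbp20 and Y14, and none rose at an adjusted p under 0.05 (limma, Benjamini-Hochberg adjustment over 7797 tested genes). Of all tested genes, 47.8% passed this test: 23.8% were called lower in the mutant and 24% were called higher. The members' count of 2 of 8 was thus no larger than the background. Over 14 alternative analyses the count was 1 to 4, and cbp20 was called in each of them. Over the whole table these analyses called 2892 to 3814 genes, of 6708 to 9047 tested. The 3 UPF genes, eIF4A3, mago and cbp80 did not pass. At an unadjusted p under 0.05, 3 of the 8 passed, the additional one being upf2, and so did 4310 of the 7797 tested genes. The median log2 fold change, mutant minus control, was -0.10 over the 8 genes and 0.01 over all tested genes. The median size of the change without its sign was 0.13 over the 8 genes and 0.21 over all tested genes. Each strain is a single strain, so p-values measure the spread between cultures, and another strain difference cannot be told apart from the loss of prd-2. In bulk mycelium, fewer cells of a type and less RNA per cell cannot be told apart either.

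**Figure D1:**
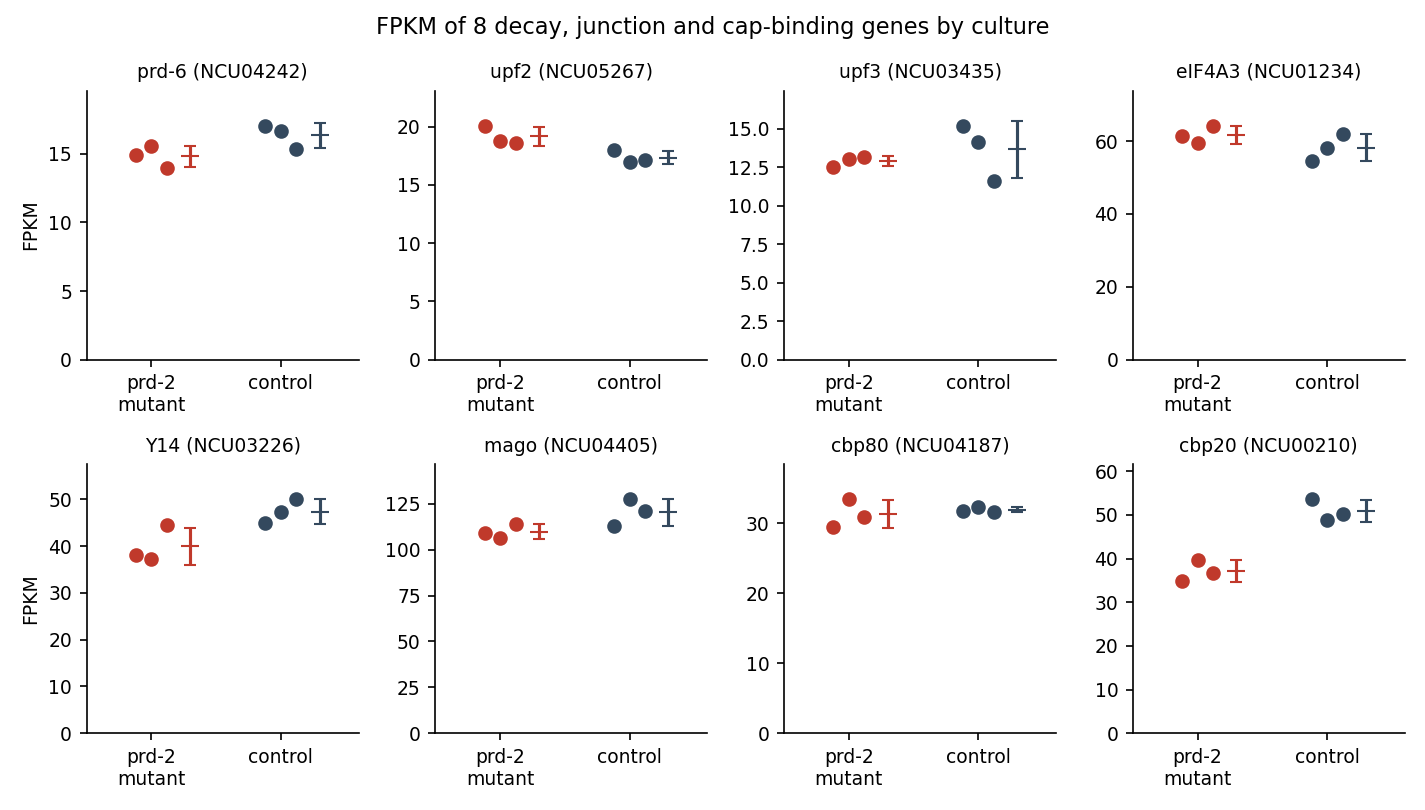
FPKM of each of the 8 genes in the 3 mutant and 3 control cultures (points), with the mean and SD of each group beside them and axes starting at 0. The mutant points lie below all control points for Y14 and cbp20 and above them for upf2, while the groups overlap for the other 5 genes.

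The libraries differed by strain across the transcriptome. Pearson correlations across tested genes, on the log2(FPKM + 1) scale, were 0.989 to 0.996 between cultures of a strain and 0.938 to 0.961 between strains. Summed FPKM was 664476 to 688885 in the mutants and 657467 to 672543 in the controls. The mutated gene prd-2 (NCU01019) measured 6.78 ± 0.784 FPKM in the mutants and 26.2 ± 1.31 FPKM in the controls (SD, n = 3 each), in the direction of the labels. The name prd-2 for this locus also comes from knowledge of the study. Its span overlaps that of NCU01021, which was not called (137 FPKM in the mutants and 132 FPKM in the controls), so the remaining signal is uncertain. Of 4 genes of conidia, the asexual spores, con-6 was called higher, con-8 and con-10 lower, and eas was not called. Mean FPKM in mutants and in controls was 117 and 19.5 for con-6, 590 and 1121 for con-8, and 28.5 and 42.0 for con-10. None of the 4 genes was at 0 in any culture. Their summed level was 3171, 1458 and 1339 FPKM in the mutants and 1966, 1795 and 1968 FPKM in the controls. Mutant replicate 1 stood apart through eas (2382 FPKM there, 745 and 634 FPKM in the other mutants), and the other mutant sums lay below all controls. Most of each sum came from con-8 and eas, so the sums do not show the rise of con-6. The part of conidia in the results was not tested.

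Among the NMD factors, the UPF1 gene prd-6 measured 14.8818, 15.5696 and 14.0008 FPKM in the mutant cultures and 17.0545, 16.6416 and 15.3212 FPKM in the control cultures. The highest mutant culture exceeded the lowest control culture, so the groups overlapped. Mutants averaged 90.7% of the control level. On the log2(FPKM + 1) scale, used for all fold changes here, the change was -0.13 (SE 0.065, 95% interval -0.29 to 0.02, limma adjusted p = 0.133). A fall of more than 0.29 log2 units or a rise of more than 0.02 thus lay outside the interval. As large a change or a larger one was found for 65.8% of tested genes.

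The upf2 transcript, for the adaptor that bridges UPF1 and UPF3, measured 20.1, 18.8 and 18.6 FPKM in the mutants and 18.0, 16.9 and 17.1 FPKM in the controls. Every mutant culture lay above every control culture, by little. The change was 0.14 log2 units (SE 0.055, 95% interval 0.01 to 0.27), with a limma adjusted p = 0.0803, and it passed with quantile normalization alone (adjusted p = 0.0417). Of all tested genes, 30.5% had every mutant culture above every control culture. The upf3 transcript was the least abundant of the 8, with 12.5, 13.0 and 13.2 FPKM in the mutants and 15.2, 14.1 and 11.6 FPKM in the controls. Here the mutant values lay inside the range of the controls, and the control spread was the widest of the 8 genes, with a coefficient of variation of 13.5% against 2.63% in the mutants. The change was -0.07 log2 units (SE 0.095, 95% interval -0.29 to 0.15, limma adjusted p = 0.588). Its sign rested on control replicate 1, without which the value was 0.0083.

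The exon junction genes were more abundant than the UPF genes. The helicase gene eIF4A3, whose protein clamps the RNA, measured 61.5, 59.4 and 64.2 FPKM in the mutants and 54.6, 58.1 and 61.9 FPKM in the controls. The groups overlapped, with the highest values in mutant replicate 3 and control replicate 3. The change was 0.08 log2 units (SE 0.063, 95% interval -0.06 to 0.23, limma adjusted p = 0.305).

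The transcript of Y14, the subunit that pairs with MAGO in the complex, fell. It measured 38.0, 37.3 and 44.5 FPKM in the mutants and 44.8, 47.2 and 50.0 FPKM in the controls. Mutant replicate 3 stood apart from the other mutants and lay just under the lowest control. Mutants averaged 84.3% of the control level, a change of -0.24 log2 units (SE 0.081, 95% interval -0.43 to -0.05, limma adjusted p = 0.0411). Of all tested genes, 45% changed by as much or more. The call is close to the threshold and was lost in several fits that left out a single culture. In the fits without a culture, the change stayed at -0.32 to -0.20 log2 units. The adjusted p was 0.1215 without mutant replicate 1, 0.1251 without mutant replicate 2, 0.1012 without control replicate 2 and 0.1193 without control replicate 3, and it was 0.0512 without the variance trend.

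The Y14 partner mago was the most abundant of the 8, with 109.4, 106.2 and 114.2 FPKM in the mutants and 112.8, 127.6 and 120.9 FPKM in the controls. Control replicate 1 lay below mutant replicate 3, so the groups overlapped. The change was -0.13 log2 units (SE 0.062, 95% interval -0.28 to 0.02, limma adjusted p = 0.125). With quantile normalization it passed, at -0.21 log2 units (adjusted p = 0.0231).

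The cap-binding genes gave both the clearest and the smallest change. The transcript of cbp20, the subunit that contacts the cap itself, measured 34.9, 39.8 and 36.6 FPKM in the mutants and 53.6, 48.8 and 50.1 FPKM in the controls. All 3 mutant values lay well below the lowest control value. Mutants averaged 73% of the control level, a change of -0.45 log2 units (SE 0.066, 95% interval -0.60 to -0.29, limma adjusted p = 0.00143). Of all tested genes, 23.8% changed by as much or more, so this fall, the largest of the 8, was not exceptional in these data.

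The annotated span of cbp20 overlaps that of NCU00211 in the NC12 assembly, and the value of cbp20 is uncertain for that reason. NCU00211 also fell, to 77.7 ± 5.71 FPKM in the mutants, against 125 ± 11.3 FPKM in the controls (SD, n = 3 each). Its change was -0.67 log2 units (SE 0.084, limma adjusted p = 0.000683), larger than that of cbp20. The libraries kept strand information, but whether the authors used it to assign fragments is not given in the sources used here. The part of shared fragments in the fall of cbp20 was not tested.

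The transcript of cbp80, the large subunit that stabilises CBP20 on the cap, measured 29.5, 33.4 and 30.9 FPKM in the mutants and 31.7, 32.3 and 31.6 FPKM in the controls. The controls lay within the range of the mutants. The change was -0.03 log2 units (SE 0.059, 95% interval -0.17 to 0.11, limma adjusted p = 0.706), and 91.6% of tested genes changed by as much or more. Without mutant replicate 1 the value was 0.011. The span of cbp80 overlaps that of NCU04188, which was not called (log2 fold change -0.07, limma adjusted p = 0.403). None of the other 6 genes overlapped an annotated neighbour.

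**Figure D2:**
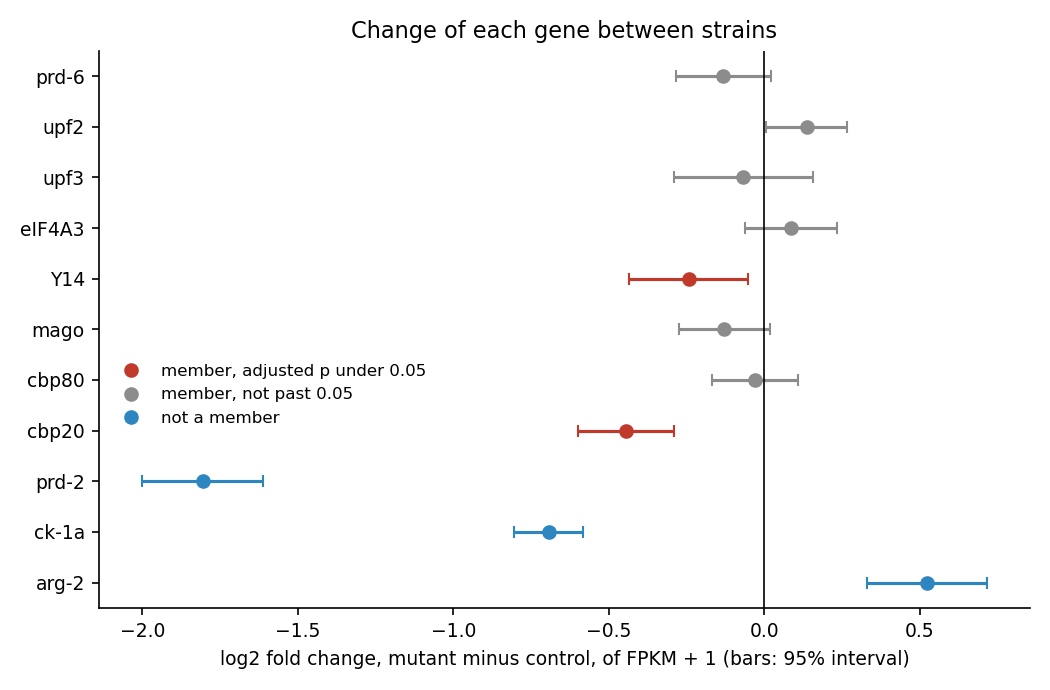
Log2 fold change of FPKM + 1, mutant minus control, with its 95% interval (horizontal axis) for the 8 genes and for prd-2, ck-1a and arg-2. Of the 8 genes, Y14 (-0.24) and cbp20 (-0.45) passed an adjusted p of 0.05, and all 8 intervals lay closer to 0 than the estimate for ck-1a (-0.69).

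In all, values of the groups did not overlap for 3 of the 8 genes, against 59.8% of all tested genes (29.3% with every mutant culture below every control culture, and 30.5% with every one above). These were cbp20 and Y14, lower in the mutant, and upf2, higher in the mutant. Lower estimates were found for 6 of the 8 genes and for 3786 of the 7797 tested genes. In the plot of change against mean level, the 8 genes lie within the cloud of tested genes at a similar level.

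**Figure D3:**
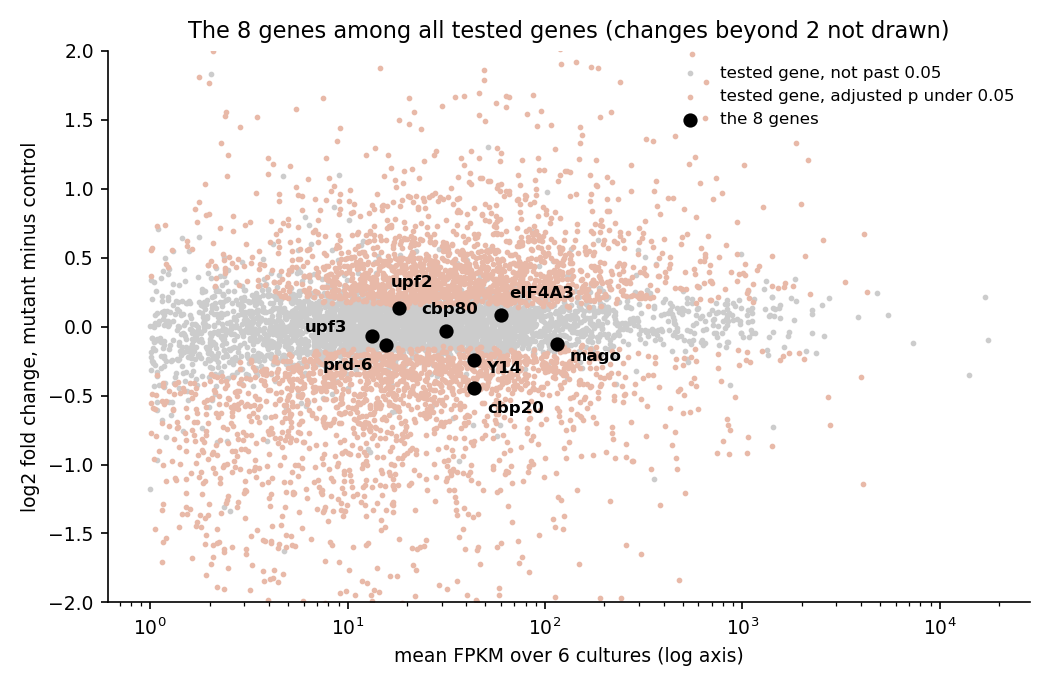
Log2 fold change, mutant minus control, against mean FPKM over the 6 cultures (log axis) for all tested genes, with the 8 genes in black; 137 genes with changes beyond 2 log2 units are not drawn. Only cbp20 and Y14 of the 8 sit among the genes past the adjusted p of 0.05, and no member lies at the edge of the cloud.

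FPKM is scaled to transcript length, so levels were set side by side between genes. The spans of cbp20 and cbp80 overlap those of NCU00211 and NCU04188, so their places in the order are uncertain. In the mutants the order from high to low was mago, eIF4A3, Y14, cbp20, cbp80, upf2, prd-6 and upf3, with means of 109.9, 61.7, 39.9, 37.1, 31.3, 19.2, 14.8 and 12.9 FPKM. Within it, only the ranges of Y14 and cbp20 overlapped between neighbours. In the controls cbp20 stood above Y14, with means of 120.5, 58.2, 50.9, 47.4, 31.9, 17.3, 16.3 and 13.7 FPKM for mago, eIF4A3, cbp20, Y14, cbp80, upf2, prd-6 and upf3. There the ranges of cbp20 and Y14 and those of upf2 and prd-6 overlapped. The most abundant gene exceeded the least abundant by 8.51 times in the mutants and by 8.82 times in the controls.

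Against all tested genes, the junction genes ranked high and the UPF genes lay below the middle. The mago transcript was above 86.6% of tested genes in the mutants and above 88.6% in the controls. The prd-6 transcript was above 38.4% of them in the mutants and above 39.8% in the controls, and upf3 above 34.4% in the mutants and 34.2% in the controls. The median tested gene had 22.3 FPKM in the mutants and 22.6 FPKM in the controls. The cbp20 transcript was above 64.7% of tested genes in the mutants and above 73% in the controls.

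Ratios between partner genes were taken within each culture. The cbp80 to cbp20 ratio of FPKM was 0.844, 0.841 and 0.844 in the mutants and 0.592, 0.662 and 0.631 in the controls. All mutant ratios were higher, and they varied less than those of the controls. Differences of ratios between strains, and their p-values, were computed from log2 ratios of FPKM + 1. For cbp80 to cbp20 the difference was 0.42 log2 units, with an exact two-sided permutation p = 0.1 (adjusted over 5 ratios, 0.167). This is the smallest p that 3 against 3 cultures allow, so no ratio could pass 0.05. Mutants averaged 98% of the control level for cbp80 and 73% for cbp20, so this ratio mainly repeats the fall of cbp20. The cbp20 value is uncertain because its span overlaps that of NCU00211.

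The eIF4A3 to mago ratio was 0.562, 0.560 and 0.562 in the mutants and 0.484, 0.455 and 0.512 in the controls, a difference of 0.21 log2 units (exact permutation p = 0.1). The upf2 to prd-6 ratio was 1.35, 1.21 and 1.33 in the mutants and 1.05, 1.02 and 1.12 in the controls, a difference of 0.27 log2 units (exact permutation p = 0.1). For these ratios too, every mutant culture lay above every control culture. Ratios of other gene pairs were not computed as a background. Among single tested genes, the groups did not overlap for 59.8%. The Y14 to mago ratio averaged 0.363 ± 0.0237 in the mutants and 0.394 ± 0.0221 in the controls (SD, n = 3 each), and the groups overlapped (exact permutation p = 0.2). The upf3 to upf2 ratio averaged 0.675 ± 0.0449 in the mutants and 0.787 ± 0.0936 in the controls (SD, n = 3 each), and the groups overlapped as well (exact permutation p = 0.3).

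**Figure D4:**
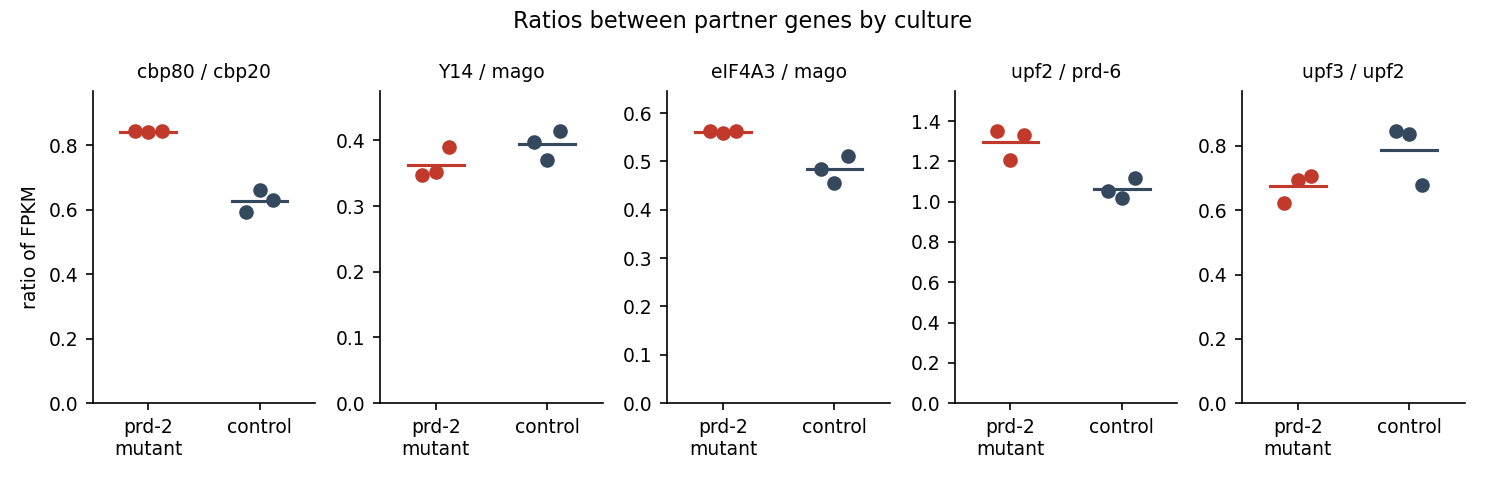
Ratios of FPKM between partner genes in each of the 3 mutant and 3 control cultures (points) with group means (lines), axes starting at 0. The groups are apart for cbp80 to cbp20, eIF4A3 to mago and upf2 to prd-6, and overlap for Y14 to mago and upf3 to upf2.

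A pair of transcripts reported to be acted on by NMD, ck-1a and arg-2, moved in opposite directions. The ck-1a transcript (NCU00685), which the series names as an NMD-controlled target, measured 211, 209 and 206 FPKM in the mutants and 342, 331 and 340 FPKM in the controls (limma adjusted p = 5.17e-05, log2 fold change -0.69, SE 0.047). The arg-2 transcript (NCU07732) encodes a subunit of the enzyme that makes carbamoyl phosphate for arginine synthesis. In Neurospora, ribosomes stalled on its upstream reading frame bring NMD upon it. It measured 81.2, 81.9 and 86.0 FPKM in the mutants and 51.0, 58.7 and 63.3 FPKM in the controls. It rose in the mutant by 0.52 log2 units (SE 0.082, limma adjusted p = 0.00187), and the groups did not overlap. Of all tested genes, 13.2% changed by as much as ck-1a or more, and 19.5% by as much as arg-2 or more. The arg-2 gene was chosen with the files at hand as a known substrate, and a pair of substrates does not measure the activity of the pathway.

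Other genes of mRNA decay, of translation termination and of cap recognition in the cytoplasm were sought with 55 words in 4 lists. The RefSeq table holds symbols but no product names, and the words found 1 gene, ccr4 (NCU07779), for the deadenylase that shortens poly(A) tails. It measured 37.3, 40.1 and 35.4 FPKM in the mutants and 28.2, 31.8 and 30.5 FPKM in the controls. The groups did not overlap, and ccr4 rose by 0.31 log2 units (SE 0.069, limma adjusted p = 0.00883). Of all tested genes, 36.4% changed by as much or more and 24% were called higher. In 30.5% of them every mutant culture lay above every control culture. The lists for decapping, for the exosome and for termination and cap translation matched no symbol. Words were matched only to whole symbols or synonyms, and 1118 genes have a symbol of their own. The empty lists therefore say nothing about the levels of such genes.

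Genes with profiles most like those of prd-6, Y14 and cbp20 were found by the root mean square difference of log2(FPKM + 1) values over the 6 cultures, each gene centred on its own mean. For prd-6 these were NCU08396, NCU01540, NCU03221, NCU01478 and NCU06677, at differences of 0.0226 to 0.0297, where the median tested gene stood at 0.179. For Y14 they were NCU08475, tom40 (for the pore of the mitochondrial outer membrane translocase) and NCU06090, at 0.0212 to 0.0281. For cbp20 they were NCU00743, NCU09316 and NCU11308, at 0.0245 to 0.0386. The nearest of these, NCU00743, averaged 87.5 FPKM in the mutants and 117 FPKM in the controls. All the listed genes were picked for the smallest differences, so standing far below the median follows from the choice. Shared regulation was not tested.

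**Figure D5:**
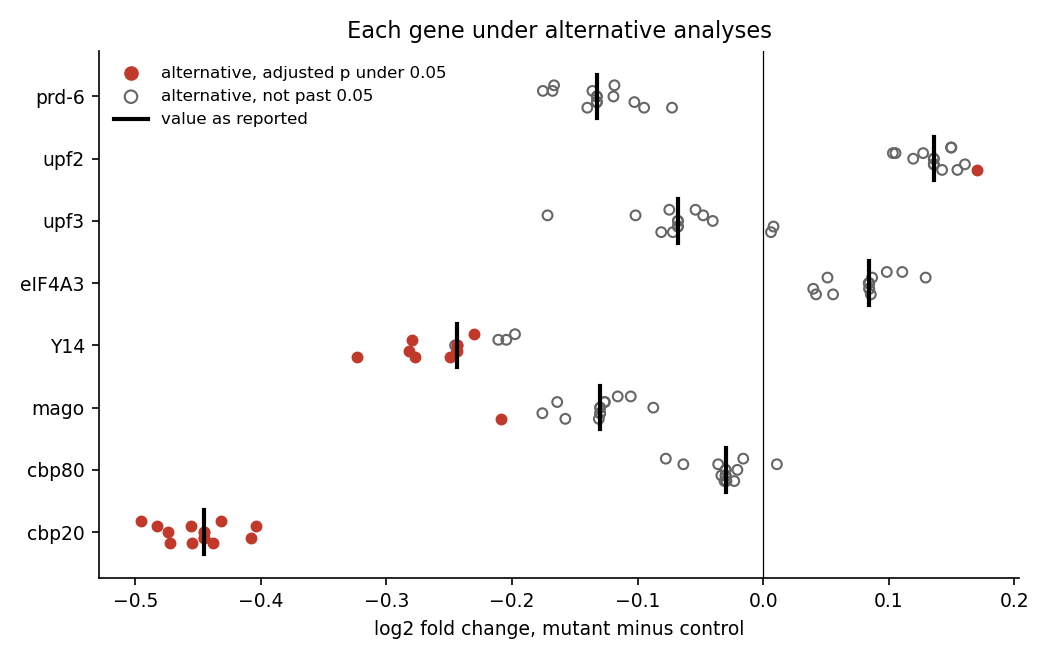
Log2 fold change of each of the 8 genes (horizontal axis) in the reported analysis (black bar) and in 14 alternatives (circles, filled where the adjusted p is under 0.05). The call of cbp20 is filled in all 14, that of Y14 in 9, those of upf2 and mago in 1 each, and upf3 and cbp80 cross 0.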

How the data were processed

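Polyadenylated RNA of 6 cultures was sequenced as directional paired-end libraries, per the labels' protocols. The authors deposited 1 table of FPKM values, with 1 column per culture and no column of another sample. The submitters' processing notes name STAR and Cuffnorm. The genome build, annotation, versions and strand setting are not given in the sources used here. Symbols came from the RefSeq table of NC12 (9729 of 9730 locus tags matched); its spans served only to find which genes overlap or flank each other, and no coordinates are printed.

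Genes with a mean of at least 1 FPKM were compared as log2(FPKM + 1), mutant minus control, with limma 3.58.1 in R 4.3.3 (eBayes with a mean-variance trend), with adjustment over 7797 genes. Fold changes of low genes are understated. The members and lists were chosen with earlier results of these data known. Named genes were the 8 members, prd-2, ck-1a, called list genes and nearest profiles. Also named are 4 conidial markers and, chosen later, arg-2 and genes that overlap or flank a member. On simulated data with 200 genes raised by 1 log2 unit, 93% were called, with 11 false calls, and none with nothing planted. The planted change was larger than that of any member, so the recovery of changes of the members' size was not measured. Fragment counts are not given. From values under 0.15 FPKM, a fragment was worth 0.962 to 1.128 times its worth in control replicate 1, with 51.9% to 88.8% of ratios whole within 0.4%. Alternatives changed the pseudocount (0.1), the filter (none, 5 FPKM), the scaling, the variance trend, the replicate block and the cultures used.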

Additional observations from a re-analysis of the deposited data

How the results depend on the processing

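The call of cbp20 held in all 14 alternatives (log2 fold change -0.495 to -0.404, limma adjusted p 0.000604 to 0.00959), and those of prd-2, ck-1a, arg-2 and ccr4 held in all 14 too. The count of 2 called genes became 4 with quantile normalization (3 lower and 1 higher), where upf2 (0.171, adjusted p = 0.0417) and mago (-0.209, adjusted p = 0.0231) passed. With that normalization, 3796 of all 7797 tested genes were called. The members' count became 1, a lower one, without the variance trend (Y14 -0.244, adjusted p = 0.0512), and ran from 1 to 2, all lower, when each culture was left out. In those fits Y14 ran from -0.323 to -0.198, upf3 from -0.172 to 0.0083 (without control replicate 1) and cbp80 from -0.0775 to 0.011 (without mutant replicate 1), and upf3 was 0.0063 with quantile normalization. The cause of these changes was not tested. The median of all tested genes moved from 0.009 to 0.0467 with quantile normalization and to -0.023 on the TPM scale. Genes higher in the mutant made up 43.9% of calls on the TPM scale, 52.9% with median centring and 55.6% with quantile normalization, against 50.2% as reported. With the replicate number as a block, the count stayed at 2 (cbp20 adjusted p = 0.00959, Y14 adjusted p = 0.0257) and 3363 genes were called over the table, against 3725 without it. Deviations of same-numbered cultures correlated at -0.104, -0.175 and 0.068 for numbers 1, 2 and 3. With 3 cultures per strain, these values cannot tell whether the numbers pair the cultures. Leaving out each culture gave 2892 to 3465 called genes. Fragment counts behind the FPKM values are unknown, so precision rests on the spread between cultures.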

Other observations

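The nearest genes on either side of the 8 that do not overlap them were compared as well. Of 16 such genes, 14 were tested and 4 were called, 3 lower and 1 higher in the mutant, where 47.8% of all tested genes were called. Beside Y14, NCU03225 fell to 10.03 ± 0.626 FPKM in the mutants, against 12.1 ± 0.510 FPKM in the controls (SD, n = 3 each; log2 fold change -0.25, limma adjusted p = 0.0171). Beside upf3, NCU03433 fell to 3.75 ± 0.351 FPKM in the mutants, against 6.46 ± 0.423 FPKM in the controls (log2 fold change -0.65, limma adjusted p = 0.000862), while upf3 itself was not called. Beside eIF4A3, NCU01233 rose by 0.22 log2 units (limma adjusted p = 0.0156), and beside cbp80, prk-1 (NCU04185) changed by -0.18 log2 units (limma adjusted p = 0.024). Neither gene flanking cbp20 was called (log2 fold changes -0.02 and -0.01), although NCU00211, which overlaps it, fell. These genes were chosen after the members' values were seen.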
